A study of Mus musculus with 6 samples.

Results

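The constitutive proteasome subunit genes were examined in retinas of BALBc mice after light damage. Members were the genes whose platform symbol begins with Psma, Psmb, Psmc or Psmd and a digit, without the immunoproteasome genes Psmb8, Psmb9 and Psmb10, each read by its probe set with the highest mean. This gave 37 of the 18193 genes analysed. The core particle had 16 of them (8 Psma and 8 Psmb genes), the regulatory particle 17 (6 ATPases, 3 further base subunits and 8 lid subunits), and 3 genes, Psmd5, Psmd9 and Psmd10, encode chaperones that assemble the base. Psmc3ip also matched by its symbol, but encodes a partner protein of meiotic recombination and no proteasome subunit.

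The proteasome is the large protease that degrades proteins tagged with ubiquitin. Its core particle is a barrel of outer alpha rings, which gate the entrance, and inner beta rings, which hold the cutting sites. The regulatory particle caps the barrel: its lid removes ubiquitin and its base unfolds the substrate and feeds it in. Photoreceptors renew their light-sensing proteins constantly, and retinal neurons depend on the proteasome to clear misfolded and oxidised proteins.

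All mice, of strain BALBc, had been kept in the dark for 1 week. The light damaged group (3 arrays) was then given 6000 lux of white fluorescent light for 6 h and its retinas were taken 24 h later; the dark adapted group (3 arrays) is the control. Neither a transgene nor a drug was part of the design, and age, sex and the number of animals behind each array are not given in the sources used here, and the p-values therefore cover only how far these samples vary, a spread that may be technical. Values are log2 expression (RMA) of total retinal RNA on Affymetrix arrays, differences are light damaged minus dark adapted, and fewer cells of a type cannot be told apart from less RNA per cell.

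The arrays had medians between 6.15 and 6.18, and upper quartiles from 7.41 on dark adapted replicate 3 to 7.67 on light damaged replicate 1. Of the 10 rod markers listed, 9 were analysed and 2 fell (limma, adjusted p under 0.05). The log2 of the summed rod markers lay between 15.58 and 15.86 in dark adapted and between 15.14 and 15.45 in light damaged retinas. All 4 reactive glia markers rose, with sums of 10.44 to 10.80 against 12.49 to 12.62, and of 7 microglia and macrophage markers 1 rose (9.08 to 9.49 against 9.40 to 9.66). Of 5 cone markers 3 fell (12.46 to 13.10 against 11.64 to 11.99). None of 5 Müller glia markers (12.46 to 12.94 against 11.91 to 12.49) and none of 4 vascular markers (10.05 to 10.31 against 10.56 to 10.65) passed. The same held for 5 markers of the retinal pigment epithelium (8.56 to 9.58 against 8.96 to 9.91) and for the 2 of 3 blood markers analysed (6.04 to 6.59 against 6.08 to 6.19). The 5 lens markers, of a tissue outside the retina, ranged from 14.54 to 15.62 in dark adapted and from 14.62 to 15.59 in light damaged samples, highest on the replicate 3 arrays of both groups, and none passed. With the replicate number as a block, the setting of the subunit calls below, 5 of 9 rod and 4 of 5 cone markers fell, 2 Müller glia markers rose and 2 fell, and 4 reactive glia, 2 microglia and macrophage and 1 vascular marker rose; no lens, pigment epithelium or blood marker passed. The part of these cell types in the results below was not tested. Dark adapted replicate 3 stood apart for the subunit genes, as given below, so results for these genes as a set are given with and without it.

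Most constitutive proteasome genes read slightly higher after light damage, by changes that did not pass the test for any single gene unless the arrays were paired. Of the 37 members 35 had a positive change, against 57.0% of all genes, with a median of 0.32 against 0.03 over all genes and 0.10 over the genes above the median level. In limma without a block 0 members passed an adjusted p of 0.05, where 2.01% of all genes did (1.74% higher and 0.269% lower), and 10 members had an unadjusted p under 0.05, where 11.0% of all genes did. The replicate numbers were taken to pair the arrays, as judged from these same values, so the calls below rest on an inferred pairing. With the replicate number as a block, 9 of the 37 members (24.3%) rose and 0 fell, where 6.73% of all genes rose and 2.13% fell; among the genes above the median level 11.0% rose. The 9 were the alpha ring genes Psma2, Psma3, Psma5 and Psma6, the catalytic beta ring gene Psmb5, the base gene Psmd2 and the lid genes Psmd6, Psmd12 and Psmd14, which are named here after their values were seen.

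**Figure D1:**
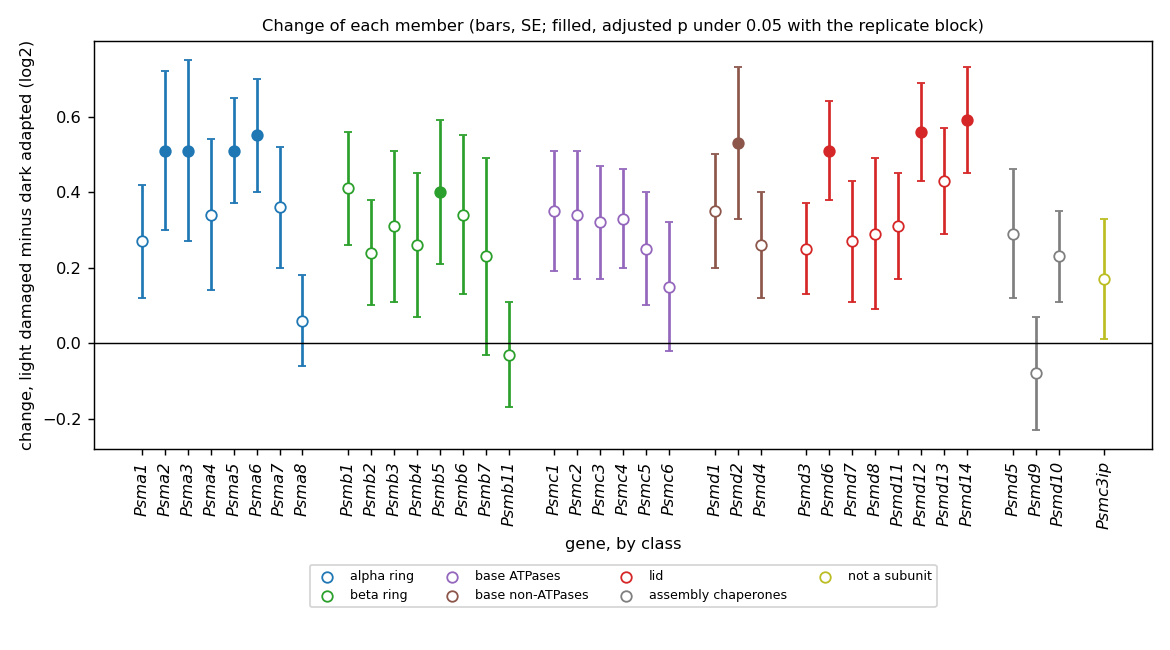
Change of each of the 37 members (vertical axis, log2, light damaged minus dark adapted) by class; bars are standard errors of the fit without a block and filled points passed an adjusted p of 0.05 with the replicate block. The highest change is that of Psmd14 at 0.59; Psmb11 at -0.03 and Psmd9 at -0.08 lie below 0 on the values as deposited.

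Psma8, a testis form of an alpha ring subunit, and Psmb11, the beta ring subunit of thymic epithelium, were read at means below the lower quartile of every array. Psma8 lay at 4.74, 4.64 and 4.50 in dark adapted replicates 1, 2 and 3 and at 4.68, 4.70 and 4.67 in light damaged replicates 1, 2 and 3. Psmb11 lay at 4.63, 5.01 and 4.81 against 4.82, 4.83 and 4.72. The groups overlapped for both, with changes of 0.06 ± 0.12 and -0.03 ± 0.14 (SE). The other 14 core genes and the 17 regulatory particle genes are called the 31 widely expressed subunits below, a choice made after the values were seen.

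All 31 of these subunits had a positive change, from 0.15 to 0.59 with a median of 0.34, on the values as deposited and after quantile normalization (median 0.20); with arrays centred on reference genes 30 of 31 were positive and Psmc6 turned negative (-0.07). In 30 of 31 genes (96.8%) the light damaged array was higher in each of the same-numbered pairs, where this held for 27.7% of all genes. For 18 of 31 (58.1%) every light damaged value lay above every dark adapted value, against 11.9% of all genes. Among the 9096 genes above the median level, which include all 31 subunits, the shares were 39.2% and 18.2%. On dark adapted replicates 1, 2 and 3 the median deviation of the 31 genes from their own means over the 6 arrays was -0.04, -0.09 and -0.46, and on light damaged replicates 1, 2 and 3 it was 0.19, 0.25 and 0.11. Dark adapted replicate 3 thus lay far below the other arrays, while the others differed less. The genes above the median level also had their lowest median deviation on this array, at -0.22, so bright genes in general read lower there.

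**Figure D2:**
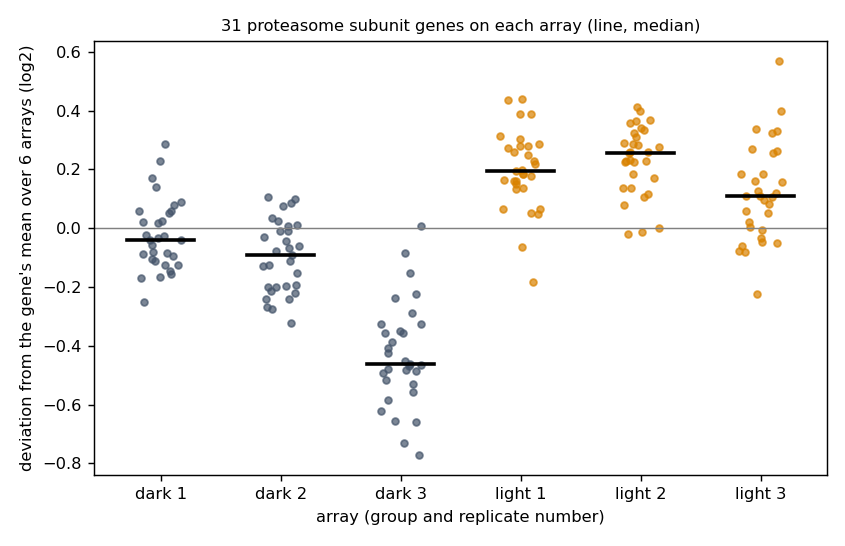
Each point is 1 of the 31 widely expressed subunit genes on 1 array, as its deviation from the gene's mean over the 6 arrays (vertical axis, log2), and lines are medians. Dark adapted replicate 3 is the lowest, with a median of -0.46, and the light damaged medians lie between 0.11 and 0.25.

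Dark adapted replicate 3 held the lowest of the 6 values for 27 of the 31 genes (87.1%), against 34.2% of all genes and 48.8% of the genes above the median level, so part of the size of the change rests on it. Within pairs 1, 2 and 3 the median change of the 31 genes was 0.20, 0.31 and 0.55, against -0.01, 0.03 and 0.12 over all genes. Over the genes above the median level it was -0.0, 0.08 and 0.25. Without dark adapted replicate 3 the median was 0.22, with 29 of 31 positive and 0 members passing. Of all 18193 genes 9349 were then positive and 1.31% passed as higher, and of the 9096 genes above the median level 4964 were positive. The median was then 0.01 over all genes and 0.03 over the genes above the median level. Psmd2 then changed by 0.34, Psma6 by 0.43 and Psmd14 by 0.51. With any 1 array left out, the lowest change of Psma2 was 0.27 and that of Psma3 0.25. With the block and without pair 3, 12 members rose, where 10.8% of all genes did, and the 9 were among them. Without pair 1, 9 members rose, 8 of them shared, where 6.06% of all genes did. Without pair 2 Psmd12 and Psmd14 remained, where 4.05% of all genes rose. With a pair left out, few arrays remain to estimate each gene's own spread. Genes called in either direction went from 1613 with all pairs to 3166 without pair 3. These counts therefore cannot show how well the calls hold without a pair. The level of the 5 reference genes was also lowest on dark adapted replicate 3, at a mean of 10.38 against 10.61 to 10.91 on the others.

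How the values are scaled changed the size and the calls. Quantile normalization moved the calls over all genes without a block from 316 higher and 49 lower to 327 and 162, and centring on the reference genes Actb, Hprt, Tbp, Ywhaz and Sdha moved them to 141 and 139. This centring shifted the median of all genes from 0.03 to -0.20 and that of the 31 subunits from 0.34 to 0.11. It takes the same amount off every gene on an array, so it cannot change the distance between these medians. After quantile normalization, which can change it, the median was -0.0 over all genes and 0.20 over the 31 subunits. With the replicate block, Psma6, Psmd12 and Psmd14 passed after quantile normalization, where 4.17% of all genes rose, and 0 of the 37 members passed after centring, where 1.62% rose. Actb, a cytoskeletal actin and 1 of the reference genes, itself had a change of 0.70 ± 0.17 (SE).

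The alpha ring subunits form the outer rings of the core and control access to its chamber. The median change of its 8 genes was 0.43. With the block 4 of 8 rose and 4 did not pass, where 6.73% of all genes and 11.0% of those above the median level rose. Psma6 lay at 9.83, 9.59 and 9.35 in dark adapted and at 10.17, 10.20 and 10.05 in light damaged replicates 1, 2 and 3. Every light damaged value was above every dark adapted one. The change was 0.55 ± 0.15 (SE), a 1.46-fold difference (limma adjusted p = 0.153 without and 0.0164 with the block, higher in 3 of 3 pairs). Its chosen probe set carries a suffix that marks possible matches to other transcripts, its other probe sets gave changes from about 0 to 0.46, and the mean of its probe sets 0.29.

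Psma5 lay at 9.13, 9.02 and 8.73 against 9.49, 9.45 and 9.48 in dark adapted and light damaged replicates 1, 2 and 3, so the light damaged arrays lay within 0.02 (SD) of each other and above the dark adapted ones. The change was 0.51 ± 0.14 (SE, adjusted p = 0.0265 with the block in limma). Psma2 and Psma3 had the same change of 0.51, but with larger errors without the block (0.21 and 0.24). Psma2 lay at 10.09, 10.14 and 9.40 against 10.38, 10.49 and 10.29 (limma adjusted p = 0.0491 with the block). For Psma3 the values were 10.60, 10.46 and 9.75 against 10.96, 10.92 and 10.44, where light damaged replicate 3 fell inside the dark adapted range (adjusted p = 0.0218 with the block in limma). The remaining widely expressed alpha ring genes, Psma1, Psma4 and Psma7, had changes of 0.27, 0.34 and 0.36 and did not pass.

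In the beta ring, which lines the cutting chamber, Psmb5 rose with the block and 7 of 8 genes did not pass. This share of 12.5% is near the 11.0% of the genes above the median level, with 6.73% over all genes. The 8 genes had a median change of 0.29. Psmb5 encodes the subunit with chymotrypsin-like activity. Its values were 9.99, 9.90 and 9.41 in dark adapted and 10.28, 10.33 and 9.89 in light damaged replicates 1, 2 and 3, so the groups overlapped through light damaged replicate 3 while each pair was higher. The change was 0.40 ± 0.19 (SE), and limma gave an adjusted p of 0.539 without and 0.0485 with the block. Psmb1, a non-catalytic subunit of the ring, had the highest change of the ring, with 9.39, 9.30 and 8.93 against 9.69, 9.64 and 9.52 and no overlap (0.41 ± 0.15, SE, limma adjusted p = 0.052 with the block). The other catalytic genes, Psmb6 with caspase-like and Psmb7 with trypsin-like activity, had changes of 0.34 ± 0.21 and 0.23 ± 0.26 (SE) and did not pass. Psmb7 ranged from 10.08 to 11.02 in dark adapted and from 10.51 to 11.17 in light damaged retinas, a spread wider than its change.

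The 250 bases before the start of the Psmb5 gene, shown because members moved in 1 direction, were read from RefSeq (GRCm38.p6), where 30 of the 37 members had an entry. This window is chr14:54617996-54618245 on the minus strand. Capitals mark a match to TGACNNNGC, the core of the element bound by Nfe2l1 and Nfe2l2; CCAAT, the motif of NF-Y, was also searched, both on either strand, and these motifs do not overlap here.
Psmb5: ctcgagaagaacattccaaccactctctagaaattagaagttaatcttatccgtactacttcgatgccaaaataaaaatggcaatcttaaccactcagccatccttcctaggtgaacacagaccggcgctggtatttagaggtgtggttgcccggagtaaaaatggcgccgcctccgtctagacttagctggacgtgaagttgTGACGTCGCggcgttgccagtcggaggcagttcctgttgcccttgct
The match begins 47 bases before the annotated start. TGACNNNGC was found in 5 of 30 member windows (16.7%), those of Psmb5, Psmb6, Psmc6, Psmd9 and Psmd12. CCAAT was found in 13 of 30 (43.3%). The shares were 10.1% and 34.5% of all 27025 genes with a window, and 11.7% and 35.7% of those among the genes analysed. Among the 25 widely expressed subunits with a window, the 4 with TGACNNNGC had changes from 0.15 to 0.56 with a median of 0.37, and the 21 without it from 0.25 to 0.59 with a median of 0.35. A match in these letters is a description of the window and not a binding site.

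The ATPases Psmc1 to Psmc6 form the ring that unfolds substrates. None of the 6 passed with or without the block (lowest adjusted p 0.377 and 0.0978 in limma; unadjusted p under 0.05 in 1 and 5 of 6 genes, with 11.0% and 22.7% of all genes), and the median change was 0.33. Psmc1 had the highest change, with 8.57, 8.42 and 8.02 against 8.69, 8.74 and 8.63. The light damaged values were above all dark adapted ones, by a change of 0.35 ± 0.16 (SE). Its other probe set gave -0.36, and the mean of both gave -0.01, so the direction rests on the probe set chosen. Psmc6 had the lowest, with 9.49, 9.31 and 8.93 against 9.48, 9.30 and 9.40. Its pairs 1 and 2 both differed by -0.01 and pair 3 by 0.47, so its change of 0.15 ± 0.17 (SE) rested on pair 3.

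Of the base subunits without ATPase activity, Psmd2, a scaffold that docks ubiquitin-carrying shuttle proteins, rose with the block. It lay at 10.44, 10.11 and 9.69 in dark adapted and at 10.74, 10.61 and 10.51 in light damaged retinas. The groups did not overlap, and the change was 0.53 ± 0.20 (SE, limma adjusted p = 0.324 without and 0.0282 with the block). Psmd1, the other large scaffold, had a change of 0.35 ± 0.15 and the ubiquitin receptor gene Psmd4 one of 0.26 ± 0.14 (SE), and neither passed. Psmd4 lay at 10.01, 10.15 and 9.79 against 10.18, 10.34 and 10.22, where the lowest light damaged value was only just above the highest dark adapted one.

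The lid had the highest single changes. Its 8 genes had a median change of 0.37. With the block 3 rose (37.5%, against 6.73% of all genes and 11.0% of those above the median level) and 5 did not pass. Psmd14, the metalloprotease that cuts ubiquitin chains off the substrate, lay at 10.24, 10.03 and 9.90 in dark adapted and at 10.58, 10.61 and 10.75 in light damaged replicates 1, 2 and 3. The groups were clearly apart, by 0.59 ± 0.14 (SE) or 1.51-fold (limma adjusted p = 0.0864 without and 0.0171 with the block; pairs 0.34, 0.58 and 0.85). Psmd12, a structural lid subunit, lay at 9.13, 9.10 and 8.83 against 9.52, 9.59 and 9.63, a change of 0.56 ± 0.13 (SE, limma adjusted p = 0.0937 without and 0.0172 with the block). Psmd6, another structural subunit, lay at 9.76, 9.67 and 9.46 against 10.17, 10.11 and 10.14, a change of 0.51 ± 0.13 (SE, adjusted p = 0.0189 with the block in limma). In these 3 genes the light damaged arrays agreed within 0.03 to 0.09 (SD), and the dark adapted arrays within 0.15 to 0.17.

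The windows before Psmd14 (chr2:61711444-61711693, plus strand) and Psmd12 (chr11:107479278-107479527, plus strand), the lid genes with the highest changes, carry 1 motif match each, in capitals: CCAAT read on the other strand in Psmd14 and TGACNNNGC read on the other strand in Psmd12, beginning 247 bases before the start.
Psmd14: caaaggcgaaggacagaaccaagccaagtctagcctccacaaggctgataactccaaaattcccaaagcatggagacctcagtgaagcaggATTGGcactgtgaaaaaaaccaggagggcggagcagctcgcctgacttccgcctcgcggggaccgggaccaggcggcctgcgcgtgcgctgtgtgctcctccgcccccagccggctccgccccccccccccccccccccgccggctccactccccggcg
Psmd12: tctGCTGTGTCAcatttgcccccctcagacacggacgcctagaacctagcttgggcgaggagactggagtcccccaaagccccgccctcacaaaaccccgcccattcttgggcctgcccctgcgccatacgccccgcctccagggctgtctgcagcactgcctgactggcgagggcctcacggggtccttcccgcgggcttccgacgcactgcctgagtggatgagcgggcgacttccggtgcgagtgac
Among the other genes that rose with the block, the windows of Psma2, Psma3 and Psma6 held CCAAT and those of Psma5, Psmd2 and Psmd6 held neither motif. Of the widely expressed subunits with a window, 4 of 10 with CCAAT and 5 of 15 without it rose with the block. Their median changes were 0.35 and 0.34. For TGACNNNGC, 2 of 4 with it and 7 of 21 without it rose.

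The lowest change in the lid was that of Psmd3, a structural subunit, with 9.21, 9.14 and 9.14 against 9.43, 9.43 and 9.40. The arrays of each group were within 0.04 (SD), and the groups did not overlap, but the change of 0.25 ± 0.12 (SE) did not pass (limma adjusted p = 0.49 without and 0.179 with the block). Psmd13 had 8.29, 8.17 and 8.20 against 8.49, 8.85 and 8.62, with pairs of 0.20, 0.68 and 0.42 and limma adjusted p = 0.0572 with the block. Psmd7, Psmd8 and Psmd11 had changes of 0.27, 0.29 and 0.31 and did not pass.

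The base chaperones bind ATPase subunits during assembly and leave the finished particle. None of the 3 passed without or with the block (lowest adjusted p 0.566 and 0.188 in limma). An unadjusted p under 0.05 was found in 0 and 2 of them, against 11.0% and 22.7% of all genes. Psmd5 lay at 8.18, 8.05 and 8.21 against 8.29, 8.25 and 8.78, where light damaged replicate 3 was well above the rest. Psmd9 lay at 7.61, 7.52 and 7.17 against 7.35, 7.39 and 7.33, a change of -0.08 ± 0.15 (SE) with overlapping groups. Psmd10, also known as gankyrin, had a change of 0.23 ± 0.12 and Psmc3ip one of 0.17 ± 0.16 (SE).

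Core and regulatory particle had nearly the same median change. The 16 core genes had a median change of 0.34 and the 17 regulatory particle genes one of 0.33. With the block 5 of 16 (31.2%) and 4 of 17 (23.5%) rose, against 6.73% of all genes. Among the genes above the median level 11.0% rose. The mean level of the 14 widely expressed core genes was 9.74, 9.70 and 9.28 in dark adapted and 9.97, 10.02 and 9.84 in light damaged replicates 1, 2 and 3. That of the regulatory particle genes was 9.52, 9.42 and 9.16 against 9.73, 9.75 and 9.69. Both particles were higher in every pair and lowest on dark adapted replicate 3. The core mean minus the regulatory particle mean, over all 16 and 17 genes, was -0.40 ± 0.06 in dark adapted and -0.43 ± 0.06 (SD, n = 3) in light damaged retinas, a difference of -0.03 where the SD within each group was 0.06. Within pairs this difference was -0.06 and -0.04 in pairs 2 and 3 and under 0.01 in size in pair 1. Without Psma8 and Psmb11 it was 0.21 ± 0.08 and 0.22 ± 0.07 (SD, n = 3), a difference of 0.01, with 0.02, -0.01 and 0.03 within pairs 1, 2 and 3. No test was run on these means, since the genes were chosen with results known.

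**Figure D3:**
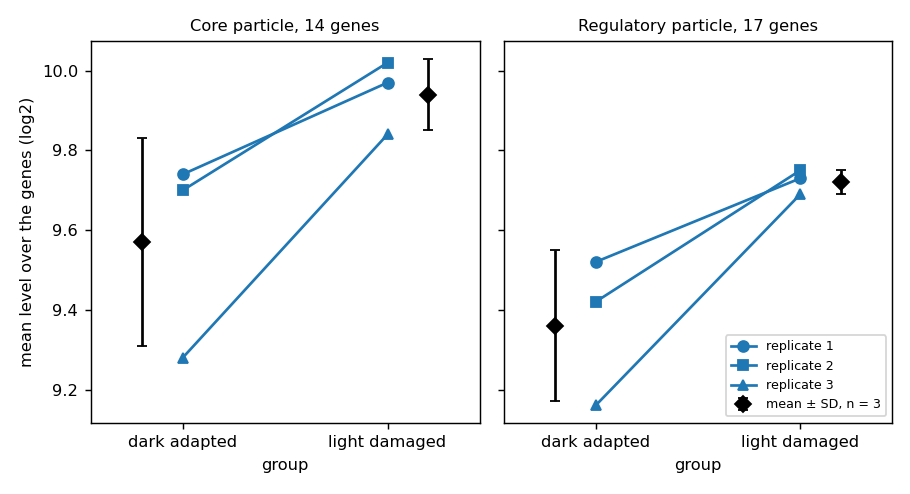
Mean log2 level of the 14 widely expressed core genes and the 17 regulatory particle genes (vertical axis) on each array, with lines joining same-numbered arrays and diamonds for the group mean ± SD (n = 3). Both particles are higher in the light damaged array of all 3 pairs, by 0.23, 0.32 and 0.57 in the core and by 0.21, 0.33 and 0.54 in the regulatory particle.

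Within the core the alpha ring mean (7 genes without Psma8) differed by 0.43 between groups and the beta ring mean (7 genes without Psmb11) by 0.31. Within the regulatory particle the ATPase mean differed by 0.29 and the lid mean by 0.40. The alpha ring changed by 0.31, 0.37 and 0.63 within pairs 1, 2 and 3, and the beta ring by 0.16, 0.28 and 0.50. The ATPases changed by 0.13, 0.26 and 0.49 within the pairs and the lid by 0.27, 0.40 and 0.54. In each pair the alpha ring was ahead of the beta ring and the lid ahead of the ATPases, by the probe sets chosen. With the mean of all probe sets per gene, the same alpha ring genes changed by -0.02 (Psma1) to 0.51 (Psma2). The same beta ring genes then changed by 0.10 (Psmb1) to 0.40 (Psmb5), so the lead of the alpha ring depends on the probe sets. In the regulatory particle the ATPases then changed by -0.01 (Psmc1) to 0.32 (Psmc3) and the lid genes by 0.13 (Psmd7) to 0.59 (Psmd14). These differences were not tested.

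The change differed between probe sets of the same gene. Of the 37 members 20 had several probe sets, 39 in addition to those chosen. Of these, 21 had a mean above the highest array median (6.18), and 18 of the 21 changes were positive, with a median of 0.17. The 18 dimmer ones had a median of -0.01, and 7 were positive. Psmb1 gave -0.25 from another probe set and Psma1 -0.21, against 0.41 and 0.27 from the chosen ones; the mean of the probe sets was 0.10 for Psmb1 and -0.02 for Psma1. Of the 9 genes that rose with the block, Psma2, Psmb5, Psmd12 and Psmd14 had 1 probe set each. Psmd2 gave -0.05 and Psma3 -0.07 from their other probe set, against 0.53 and 0.51 from those chosen, with means of 0.24 and 0.22. The other probe sets of Psma5 gave 0.03 to 0.41 (mean of all 0.32) and that of Psmd6 gave 0.31 (mean 0.41). With the mean of all probe sets per gene, the median of the 31 widely expressed subunits was 0.25 and 29 were positive.

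The immunoproteasome subunits, which replace the catalytic beta subunits in cells exposed to interferon, rose in the test without a block. Psmb8 stands in for Psmb5, Psmb9 for Psmb6 and Psmb10 for Psmb7. Psmb8 lay at 6.58, 6.44 and 6.76 in dark adapted and at 8.10, 8.54 and 8.77 in light damaged replicates 1, 2 and 3, a 3.67-fold rise (limma adjusted p = 0.00244), although its dim second probe set gave 0.22. Psmb10 rose 2.83-fold and Psmb9 2.34-fold (limma adjusted p = 0.00319 and 0.0102), the latter with an adjusted p of at most 0.0678 without any 1 array. The change of Psmb8 exceeded that of Psmb5 by 1.48, that of Psmb9 exceeded that of Psmb6 by 0.89, and that of Psmb10 exceeded that of Psmb7 by 1.27. In each of these 3 comparisons all 3 pairs had this direction, and the exact two-sided permutation test gave p = 0.1 (0.1 after Benjamini-Hochberg adjustment), the smallest that 3 against 3 arrays allow.

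**Figure D4:**
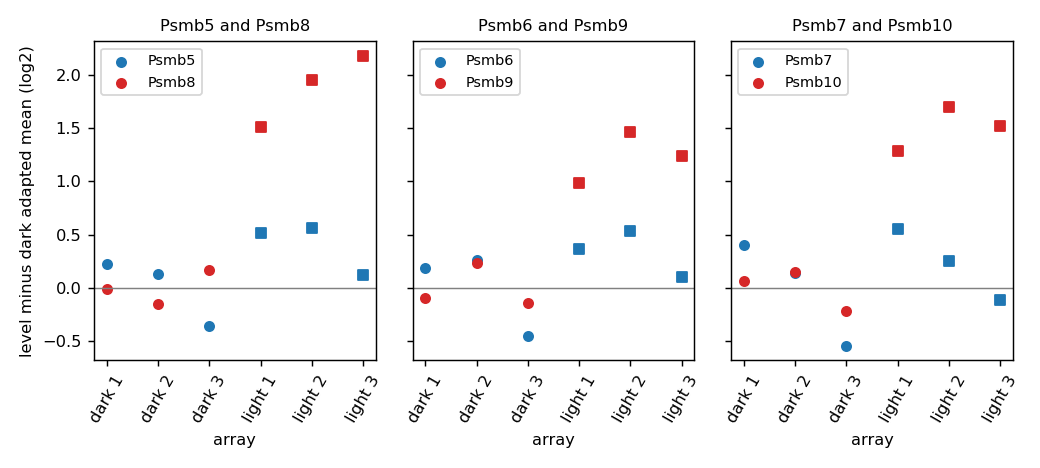
Level of each catalytic beta subunit gene (blue) and its immunoproteasome counterpart (red) on the 6 arrays, as the log2 difference from the gene's dark adapted mean (vertical axis); circles are dark adapted and squares light damaged arrays. The counterparts changed by 1.88, 1.23 and 1.50 and the constitutive genes by 0.40, 0.34 and 0.23.

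Of 28 further genes of the pathway analysed, 5 rose and 0 fell in limma without a block, where 1.74% of all genes rose, and 9 rose and 0 fell with it, where 6.73% rose. Besides the immunoproteasome genes, the 5 were Psme1, a subunit of the activator cap that opens the core, and Sqstm1, the autophagy receptor that also binds ubiquitin. Psme1 lay at 8.45, 8.12 and 8.33 against 9.32, 9.22 and 9.12, a 1.89-fold rise (limma adjusted p = 0.0142, and at most 0.0779 without any 1 array). Sqstm1 lay at 10.45, 10.20 and 9.93 against 10.92, 11.02 and 11.15, a 1.79-fold rise (limma adjusted p = 0.0423, at most 0.2 without any 1 array, and 0.108 with the mean of its probe sets). In both the groups did not overlap.

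The genes added by the block were Psme3, the nuclear activator (0.55), Pomp, which matures the core during assembly (0.49), Nfe2l2, the antioxidant response factor (0.41), and Nploc4, a cofactor of the segregase Vcp (0.49). Pomp lay at 10.02, 9.92 and 9.62 against 10.33, 10.38 and 10.32 (limma adjusted p = 0.172 without and 0.0292 with the block), and its groups did not overlap. Nfe2l2 gave an adjusted p of 0.484 without and 0.0416 with the block, and another probe set of it gave -0.21. Nfe2l1, the factor that raises subunit genes when proteasome activity falls short, had a change of 0.28 ± 0.16 (SE) and did not pass (limma adjusted p = 0.183 with the block). Neither did Sem1, a small lid subunit outside the symbol rule (0.27), nor Psmf1, an inhibitor of the core (0.16).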

How the data were processed

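Total RNA of 3 dark adapted and 3 light damaged retina samples was measured on Affymetrix arrays, grouped by sample title. Per the submitters' processing notes the authors used RMA, of a version not stated there. The range of the deposited values (3.30 to 13.89) shows a log2 scale, and no further scaling was applied; RMA hides changes in total RNA per retina and compresses dim and bright signals. Precision is limited by having only 6 arrays. Of 45101 probe sets, 64 were controls, 34945 had 1 gene in GEO's platform annotation, 932 several and 9160 none; RefSeq (GRCm38.p6) held 34741 of those with 1 gene and changed 0 symbols. The probe set with the highest mean was taken per gene, which gave 18193 genes, with no filter on level.

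The comparison used limma 3.58.1 (lmFit, eBayes; R 4.3.3). P-values were adjusted by Benjamini-Hochberg across the whole gene table, with 0.05 as threshold. The fit was tested on simulated data. There 200 of 18193 genes were changed, with errors drawn independently for each gene. A log2 change of 0.5 was recovered for 8% of the genes given it without the block and for 28% with it. More genes were called in the data (1613 with the block), so these shares need not hold there. A member that did not pass may still have changed by such an amount. Exact permutation tests were used only for the 3 comparisons of an immunoproteasome gene with its constitutive counterpart, on their difference within each array. Arrays with the same replicate number deviated together from their group means (correlations 0.732, 0.618 and 0.432, other arrays -0.48 to 0.00917). Pairing was inferred from these values, since no label states it. Deviations from a group mean cancel within the group, so the contrast between same-numbered and other arrays is partly built in. The block is given where it changes a call. The members, gene lists, motifs and tests were chosen with earlier results of these data known. Values on every array were to be given for called members, or the 12 with the smallest p where more were called, and the highest and lowest change per class; for the pathway, called genes (at most 8) and the smallest p per sub-list. Genes named for their call with the block fall outside this rule. Of 8 reference genes listed, 5 were analysed. Alternatives were the block, quantile normalization, reference centring, mean of probe sets, probe sets without the suffixes _s_at and _x_at, genes above the median level, limma's trend and each array left out; combinations with the block were chosen after seeing the data.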

Additional observations from a re-analysis of the deposited data

How the results depend on the processing

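No member fell in any of the fits, and none passed without the block, including when each of the 6 arrays was left out. With the replicate block 9 members rose, 1613 genes changed and 9 further pathway genes rose. With the block and without pair 1, 2 or 3, between 2 and 12 members, 1075 and 3166 genes (1511 without pair 1), and 6 and 12 pathway genes were called. With the block and quantile normalization 3 members and 1240 genes were called, and the regulatory particle median was 0.19, as without the block. With the block and reference centring 747 genes and 3 pathway genes were called; centring alone gave 2 pathway genes, and both medians were 0.11 with and without the block. Without the block, leaving out 1 array gave 151 to 417 genes, 2 to 5 pathway genes, core medians of 0.22 to 0.46 and regulatory particle medians of 0.22 to 0.40. The cause was not tested. The difference between core and regulatory particle stayed between -0.06 and 0.01 in all settings run. With all 6 arrays, the block and limma's trend cannot alter the change of any gene, and reference centring cannot alter this difference. These settings therefore do not show how stable it is.

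Psmb9, Psme1 and Sqstm1 lost the call with reference centring (limma adjusted p = 0.0677, 0.105 and 0.11), and Sqstm1 also with limma's trend (0.0648) and without each array other than dark adapted replicate 1 (0.0772 to 0.2). Psmb9 lost it without light damaged replicate 2 or 3 (0.0505 and 0.0678), and Psme1 without dark adapted replicate 2 or any 1 light damaged array (0.0599 to 0.0779). Signal over background limits Psma8 and Psmb11.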
